A study of Mus musculus with 23 samples.

Results

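A set of 10 genes for proteins of endothelial cell junctions and of the endothelial cell surface were followed on arrays of mouse cells on their way from haemogenic endothelium to blood, with and without RUNX1-ETO. The genes were Cdh5, Cldn5, Esam, Icam2, Pecam1, Emcn, Mcam, Cd34, Robo4 and Egfl7, each read by the probe with the highest mean whose RefSeq accession belonged to it, and all 10 were measured among 20145 genes on the array and 15202 genes that were tested. Cells came from an A2lox ES cell line, for which the labels give the strain C57BL/6, that carried an HA-tagged human RUNX1-ETO behind a promoter responding to doxycycline (Dox) with the RUNX1 gene left wild type. Every group carried the transgene, and Dox given to cells without it was not analysed here. Haemogenic endothelium (HE, KIT+Tie2+CD41-), HE2 (KIT+Tie2+CD41+) and CD41+KIT+Tie2- progenitors were sorted on day 2 of blast culture, either without Dox or with Dox at 0.1 µg per ml from day 1. Myeloid progenitors were KIT+CD41+ cells put into expansion medium with cytokines on day 2, without Dox or with Dox at 0.1 µg per ml for 12 h, and taken on day 3. There were 3 arrays of each group, but 2 of uninduced and 2 of induced progenitors, and an additional uninduced progenitor array that its title calls techrep entered the normalization but no comparison. None of the 10 genes codes for a protein used in the sort.

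Endothelial cells are held together by adherens junctions, built on the cadherin encoded by Cdh5 (VE-cadherin), and by tight junctions, in which the claudin encoded by Cldn5 is the main claudin of endothelium. Esam, Icam2 and Pecam1 encode adhesion molecules of the immunoglobulin family at the cell border, Emcn, Mcam and Cd34 encode glycoproteins of the cell surface, Robo4 a receptor of the Roundabout family and Egfl7 a secreted factor of vessel formation. In the endothelial-to-haematopoietic transition, HE cells lose contact with their neighbours and round up into blood progenitors, and genes of this kind are turned down on the way, although Cd34, Esam, Icam2 and Pecam1 are also read in blood stem and progenitor cells.

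The stretches around the transcription start (250 bases before to 50 after) are shown for 3 of the genes that rose together with Dox, Cldn5, Robo4 and Emcn, and for Cd34, which was not called, so that they can be set side by side. They are RefSeq sequences of build GRCm38.p6, all on the plus strand of the reference, and capitals mark GGAA or its complement TTCC, the shortest core that ETS factors bind.
Cldn5 promoter, chr16:18776597-18776896: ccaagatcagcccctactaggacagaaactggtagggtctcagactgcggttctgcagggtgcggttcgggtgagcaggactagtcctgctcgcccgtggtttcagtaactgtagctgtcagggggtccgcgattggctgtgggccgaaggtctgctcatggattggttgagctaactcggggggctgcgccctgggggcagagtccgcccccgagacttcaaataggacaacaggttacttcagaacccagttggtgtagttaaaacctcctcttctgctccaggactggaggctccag
Robo4 promoter, chr9:37401722-37402021: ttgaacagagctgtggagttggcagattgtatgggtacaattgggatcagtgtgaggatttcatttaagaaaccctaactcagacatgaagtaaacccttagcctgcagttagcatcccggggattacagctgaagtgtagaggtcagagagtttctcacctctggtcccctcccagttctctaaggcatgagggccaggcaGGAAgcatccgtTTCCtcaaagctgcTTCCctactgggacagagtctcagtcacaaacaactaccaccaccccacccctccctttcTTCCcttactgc
Emcn promoter, chr3:137340828-137341127: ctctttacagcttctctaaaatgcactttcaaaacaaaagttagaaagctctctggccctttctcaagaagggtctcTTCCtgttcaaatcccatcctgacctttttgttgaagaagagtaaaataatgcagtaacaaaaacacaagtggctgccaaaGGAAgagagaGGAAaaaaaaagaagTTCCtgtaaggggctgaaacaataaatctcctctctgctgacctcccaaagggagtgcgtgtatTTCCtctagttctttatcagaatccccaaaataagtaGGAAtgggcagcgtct
Cd34 promoter, chr1:194938571-194938870: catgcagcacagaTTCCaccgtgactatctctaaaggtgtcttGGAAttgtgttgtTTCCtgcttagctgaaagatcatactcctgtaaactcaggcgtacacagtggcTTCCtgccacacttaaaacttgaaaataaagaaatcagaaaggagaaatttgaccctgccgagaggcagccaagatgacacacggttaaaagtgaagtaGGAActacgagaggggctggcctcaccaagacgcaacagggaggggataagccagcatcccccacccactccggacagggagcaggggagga
The RefSeq table held 8 such stretches for 6 of the 10 genes, with 3 starts of Egfl7 among them, and none for Cdh5, Pecam1, Esam and Icam2. None of the 8 held TGTGGT, a form of the core that RUNX factors bind, nor CCGGAA or ACCGGAAGT, longer forms of the ETS core, on either strand. Other forms of the RUNX core were not searched, among them TGCGGT, which stands in the Cldn5 stretch. Of all 32851 stretches in the table, 16.8% held TGTGGT, 14.9% CCGGAA and 1.1% ACCGGAAGT, and every ACCGGAAGT match also counts as a CCGGAA match. GGAA, searched after none of the others was found, stood in 96% of all stretches with a median of 3 matches, and there were 0 in Cldn5, 4 in Robo4, 6 in Emcn and 5 in Cd34. A match or its absence describes these letters in this window alone. Egfl7 is the host gene of a microRNA, mmu-miR-126a-3p (chr2:26591402-26591423, plus strand), shown with the seed (bases 2 to 8) in capitals. The Egfl7 probe reads the mRNA of the host gene and not this microRNA.
mmu-miR-126a-3p: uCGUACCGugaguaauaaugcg

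Levels are log2 intensities after background correction and quantile normalization, so that a difference of 1 is a 2-fold change, and levels are compared for one probe at a time. Of the spots on an array, 48.8 to 78.4% were well above background. All 10 genes were well above background on every array, except Emcn on uninduced progenitor array 2 and on the techrep array. Calls were made in limma with both a threshold of 0.001 on the P value before adjustment and a change of 2-fold or more, and adjusted P values are over all 15202 genes. Runx1t1, the mouse gene of the ETO part, was read higher on all induced than on all uninduced arrays of every stage, for example 11.67 ± 0.88 (SD, n = 2) against 7.71 ± 0.30 (n = 2) in progenitors. Tek, the gene of Tie2, lay at 8.67 ± 0.06 (n = 2) in uninduced and 11.10 ± 0.26 (n = 2) in induced progenitors, although both were sorted as Tie2-, and Itga2b, the gene of CD41, at 10.70 ± 1.06 (n = 3) in uninduced and 7.49 ± 0.55 (n = 3) in induced HE, both sorted as CD41-. The arrays were on 3 slides. Slide 3, scanned on another day, held all myeloid progenitor arrays, the techrep array and induced progenitor array 2, and slides 1 and 2 all others, so that the step to myeloid progenitors can be told apart from the slide by induced progenitor array 2 alone among the arrays compared. The titles call the arrays of a group biological replicates, another label calls induced myeloid progenitor array 3 a technical one, and nothing says that they came from separate cultures, so P values measure the spread between these arrays. That spread was pooled for each gene over all 8 groups of the fit. The SE of a comparison therefore need not match the spread of the arrays compared.

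With Dox, the claudin gene Cldn5 and the receptor gene Robo4 rose at every stage, and Icam2, Emcn, Esam and Egfl7 at the later ones. Called as upregulated were 2 of the 10 genes in HE (4.7% of all genes tested were called as upregulated there), 5 of them at the HE2 stage (5.17%), 6 in progenitors (3.03%) and 7 in myeloid progenitors (5.13%). None was called as downregulated at any stage, where 2.39, 2.05, 0.704 and 1.18% of all genes were. Stage by stage in the same order, the induced arrays lay above all uninduced ones for 3, 8, 7 and 9 of the 10 genes, and for 14.1, 16.9, 22.6 and 23.8% of all genes. The median change over the 10 genes was 0.44, 1.13, 1.69 and 2.18 on the log2 scale, beside medians over all genes of -0.01, -0.03, -0.04 and -0.02. Cldn5 and Robo4 were called at all 4 stages, Icam2, Emcn and Esam at 3, Egfl7 at 2 and Cdh5 at 1, while Pecam1, Mcam and Cd34 were called at none. In bulk RNA, a change in the number of cells that express a gene and a change in RNA per cell cannot be told apart.

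**Figure D1:**
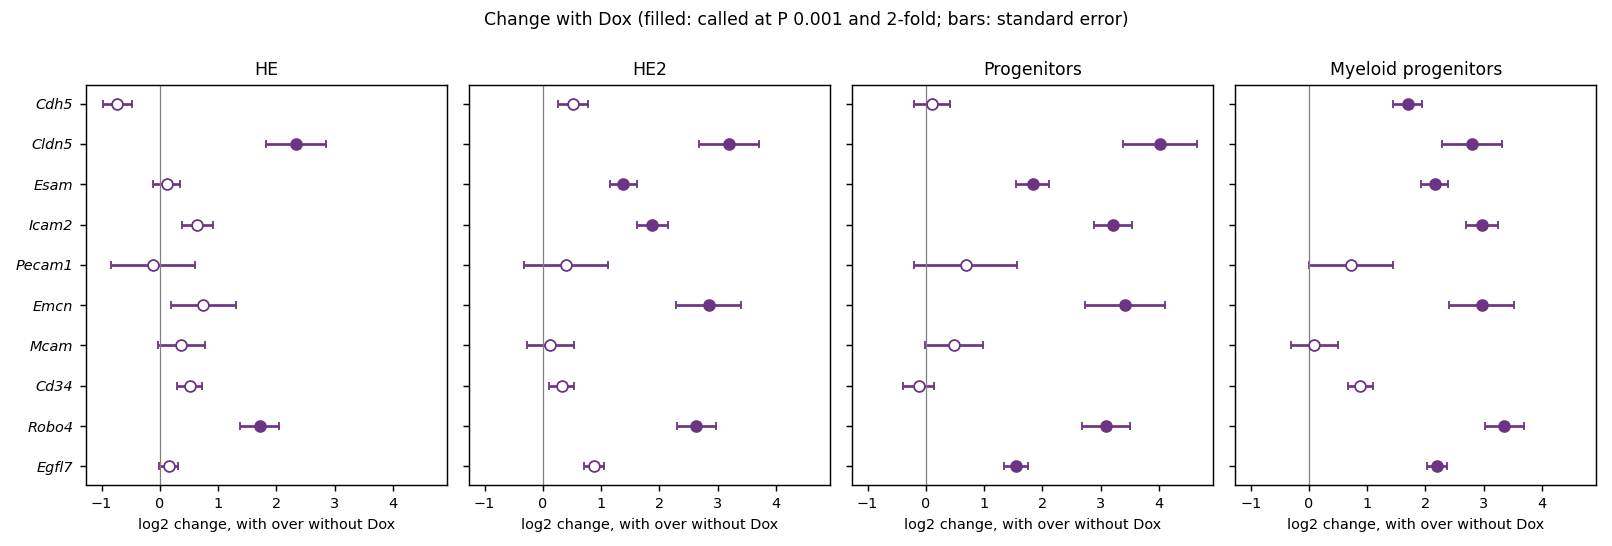
Log2 change with Dox (x axis, with over without Dox) of the 10 genes (y axis) in HE, HE2, progenitors and myeloid progenitors, with bars for the standard error and filled points for called changes. Cldn5 and Robo4 are filled in all 4 panels, and Cdh5 runs from -0.73 in HE to 1.69 in myeloid progenitors.

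Cldn5, the endothelial claudin, was read at 12.08, 10.71 and 12.40 on the uninduced HE arrays and at 14.27, 12.94 and 15.00 on the induced ones. In HE2 it was at 10.51, 9.88 and 10.65 without and at 13.93, 12.71 and 13.98 with Dox. In progenitors it was at 6.69 and 6.08 without and at 10.93 and 9.88 with Dox, and the uninduced values were the lowest of the series beside the techrep array at 6.07. In myeloid progenitors, 7.53, 8.87 and 8.23 stood against 10.97 to 11.07. At each stage every induced array lay above every uninduced one. The changes were 2.34 ± 0.52 (SE) in HE with an adjusted P of 0.00385 and 3.20 ± 0.52 in HE2 with 0.000303. They were 4.02 ± 0.63 in progenitors with 0.000621 and 2.81 ± 0.52 in myeloid progenitors with 0.000946. In the order of the stages this is 5.07-, 9.17-, 16.2- and 6.99-fold. The call in HE was lost without uninduced array 2, induced array 1 or induced array 3, when the change lay between 1.83 and 2.24, and in the fit of the HE arrays alone.

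Esam, an adhesion molecule of endothelial tight junctions and platelets, was read at 14.14, 13.82 and 14.49 on the uninduced HE arrays and at 14.29, 14.33 and 14.18 on the induced ones, which overlapped. In HE2 its 13.43, 12.87 and 13.11 without Dox lay below 14.29, 14.46 and 14.79 with Dox. In progenitors 10.94 and 10.94 stood against 12.88 and 12.66, and in myeloid progenitors 10.20, 11.22 and 11.12 against 13.06, 12.97 and 12.99. The 3 later stages showed no overlap between induced and uninduced arrays, and the induced HE2 arrays overlapped with those of HE. Esam changed by 0.12 ± 0.24 (SE) in HE, which was not called (adjusted P of 0.836), and rose by 1.38 ± 0.24 in HE2 (adjusted P = 0.000495), 1.83 ± 0.29 in progenitors (adjusted P = 0.000648) and 2.16 ± 0.24 in myeloid progenitors (adjusted P = 5.13e-06).

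Cdh5, the gene of VE-cadherin, differed in sign between stages. It was read at 14.92, 14.95 and 15.13 on the uninduced HE arrays, its highest group, and at 14.08, 14.19 and 14.54 on the induced ones, so that all induced HE arrays lay below all uninduced ones (10.9% of all genes tested were separated downwards in HE). This change of -0.73 ± 0.26 (SE) was short of 2-fold and of the P threshold (adjusted P = 0.0632). In HE2 the order was turned. The arrays read 14.19, 14.21 and 13.93 without and 14.42, 14.69 and 14.76 with Dox, a change of 0.51 ± 0.26 that was not called (adjusted P = 0.191). Progenitors had 12.58 and 12.58 without and 13.06 and 12.29 with Dox, which overlapped. In myeloid progenitors, where uninduced arrays had the lowest values of the series at 9.76, 11.01 and 10.26, induced arrays were at 12.24, 11.79 and 12.07 and the rise of 1.69 ± 0.26 was called (adjusted P = 0.000145). Even so, induced myeloid progenitors stayed below every array of HE and HE2.

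Icam2, a ligand of leukocyte integrins at the endothelial border, was read at 15.88, 15.86 and 16.22 on the uninduced HE arrays and at 16.52, 16.53 and 16.85 on the induced ones. These did not overlap (14.1% of all genes tested were separated upwards in HE), but the change of 0.65 ± 0.27 (SE) was not called (adjusted P = 0.125). In HE2, 14.71, 14.40 and 14.19 stood against 16.37, 15.73 and 16.85, a rise of 1.88 ± 0.27 (adjusted P = 9.87e-05). In progenitors, 10.44 and 10.48 stood against 13.86 and 13.48, a rise of 3.21 ± 0.33 or 9.26-fold (adjusted P = 1.09e-05). Myeloid progenitors went from 11.42, 12.12 and 11.31 to 14.99, 14.41 and 14.37, a rise of 2.97 ± 0.27 (adjusted P = 6.18e-07). At these 3 stages every induced array lay above every uninduced one. Pecam1, which encodes CD31, had the largest SE of the 10 genes, with 10.79, 9.27 and 12.49 on uninduced HE arrays, 10.35, 8.37 and 10.57 on uninduced HE2 arrays and 8.97 to 10.52 on 2 of the 3 induced HE2 arrays, the other being higher. None of its changes with Dox was called, at -0.12 ± 0.72 (SE) for HE, 0.40 ± 0.72 for HE2, 0.68 ± 0.88 for progenitors and 0.72 ± 0.72 for myeloid progenitors. In myeloid progenitors the 3 induced arrays at 10.59, 10.37 and 10.38 lay above the uninduced ones at 9.88, 9.77 and 9.54. The SDs of these groups were 0.12 and 0.17, beside 1.06 to 1.61 in the HE and HE2 groups, whose spread enters the SE. In each HE and HE2 group, the array lowest for Pecam1 was also lowest for Emcn and for second, dimmer probes of Cd34 and Mcam. It was not the lowest for Cdh5, and the cause was not tested.

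Robo4, the Roundabout receptor of endothelium, rose at every stage. It was read at 13.75, 13.56 and 13.34 on uninduced and 15.36, 15.09 and 15.36 on induced HE arrays, and at 12.35, 12.14 and 11.27 on uninduced and 14.34, 14.00 and 15.34 on induced HE2 arrays. Progenitors had 8.19 and 8.27 without and 11.49 and 11.15 with Dox, and myeloid progenitors 9.01, 10.16 and 9.12 without and 12.95, 12.82 and 12.58 with Dox. Induced and uninduced arrays overlapped at no stage, and induced HE2 lay above uninduced HE. The rises were 1.72 ± 0.34 (SE) in HE (adjusted P = 0.00148), 2.64 ± 0.34 in HE2 (adjusted P = 3.23e-05), 3.09 ± 0.41 in progenitors (adjusted P = 0.00014) and 3.35 ± 0.34 in myeloid progenitors (adjusted P = 1.93e-06). None of the alternatives that were run ended these calls. Egfl7, which encodes a secreted factor of vessel formation, was read at 17.76, 17.75 and 17.96 on uninduced and 18.23, 17.95 and 17.74 on induced HE arrays, with no call. In HE2 it went from 17.55, 17.31 and 17.16 to 18.21, 18.17 and 18.28, which separated the arrays but was under 2-fold at 0.88 ± 0.17 (adjusted P = 0.00122). It rose in progenitors from 15.89 and 15.73 to 17.11 and 17.60, by 1.55 ± 0.20 (adjusted P = 0.000132), and in myeloid progenitors from 15.73, 15.91 and 15.85 to 18.21, 17.99 and 17.87, by 2.20 ± 0.17 (adjusted P = 9.97e-08). The induced myeloid progenitor arrays overlapped with those of HE, with and without Dox. With scaling to the 75th percentile, the rise in progenitors was 1.24 and not called, nor was it in the fit of the progenitor arrays alone.

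Emcn, the gene of endomucin, was read at 9.09, 8.77 and 11.01 on uninduced and 11.31, 9.87 and 9.94 on induced HE arrays, which overlapped, with a change of 0.75 ± 0.56 (SE) that was not called (adjusted P = 0.455). In HE2, 8.82, 7.58 and 9.39 stood against 11.76, 11.87 and 10.71, and in progenitors 5.39 and 5.31 against 8.66 and 8.87. In myeloid progenitors, 7.23, 8.51 and 7.63 stood against 11.23, 10.56 and 10.48. Outside HE the induced arrays lay above the uninduced ones at each stage, by 2.84 ± 0.56 in HE2 (adjusted P = 0.00154), 3.42 ± 0.68 in progenitors (adjusted P = 0.00481) and 2.97 ± 0.56 in myeloid progenitors (adjusted P = 0.00113). In uninduced progenitors Emcn was well above background on 1 of 2 arrays, so the size of this rise and of the fall from HE2 rests in part on a reading near background. The call in progenitors was lost without uninduced array 2 (3.38) or induced array 2 (3.32), and with slide or scan day as a block. Cd34, the gene of a sialomucin of endothelium and blood progenitors, ranged from 15.29 to 16.98 over all arrays and was called in none of the comparisons. It was at 15.62, 16.03 and 15.87 on uninduced and 16.62, 16.88 and 16.66 on induced myeloid progenitor arrays, a change of 0.88 ± 0.21 that passed the P threshold and fell short of 2-fold (adjusted P = 0.00915), while in progenitors it changed by -0.12 ± 0.26 and its second, dimmer probe by -0.70.

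Mcam, the gene of CD146, was read by its brighter probe at 13.02 to 14.20 on the 15 arrays of slides 1 and 2 and at 15.43 to 16.18 on the 8 arrays of slide 3, with no overlap. Among progenitors, the uninduced arrays were at 13.87 and 13.78 on slides 1 and 2 and the techrep array at 15.43 on slide 3, and the induced arrays were at 13.02 on slide 1 and 15.60 on slide 3. Dox changed it by 0.09 ± 0.40 (SE) in myeloid progenitors, 0.48 ± 0.49 in progenitors, 0.13 ± 0.40 in HE2 and 0.37 ± 0.40 in HE, with no call. The induced progenitor arrays, with an SD of 1.83, enter all of these SEs. A second, dimmer probe of Mcam, well above background on 21 of the 23 arrays, did not follow the slides and read 8.53, 8.62 and 8.41 on induced myeloid progenitor arrays, all above the uninduced ones, of which the lowest was at 6.04. Between these groups it differed by 2.26, and by 0.56 in HE, 1.26 in HE2 and 0.70 in progenitors, values that were not tested. The 2 probes gave unlike patterns for the same gene, and the cause was not tested.

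**Figure D2:**
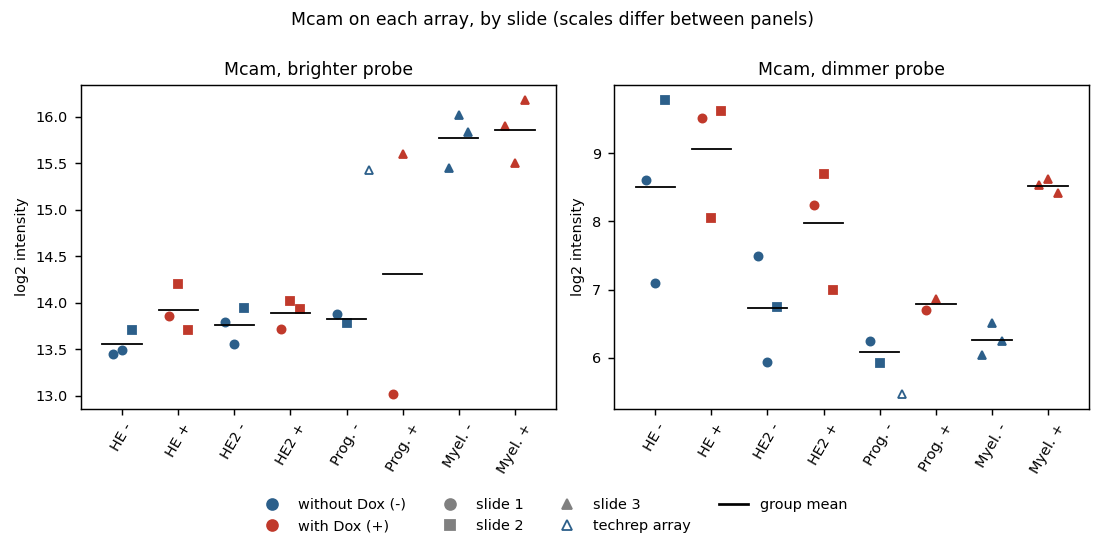
Log2 intensity of the 2 Mcam probes (y axes, on different scales) on each array by group (x axis, - without and + with Dox), with symbols for the slide, an open symbol for the techrep array and lines for group means. For the brighter probe all slide 3 arrays sit at 15.43 or above and all others at 14.20 or below.

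**Figure D3:**
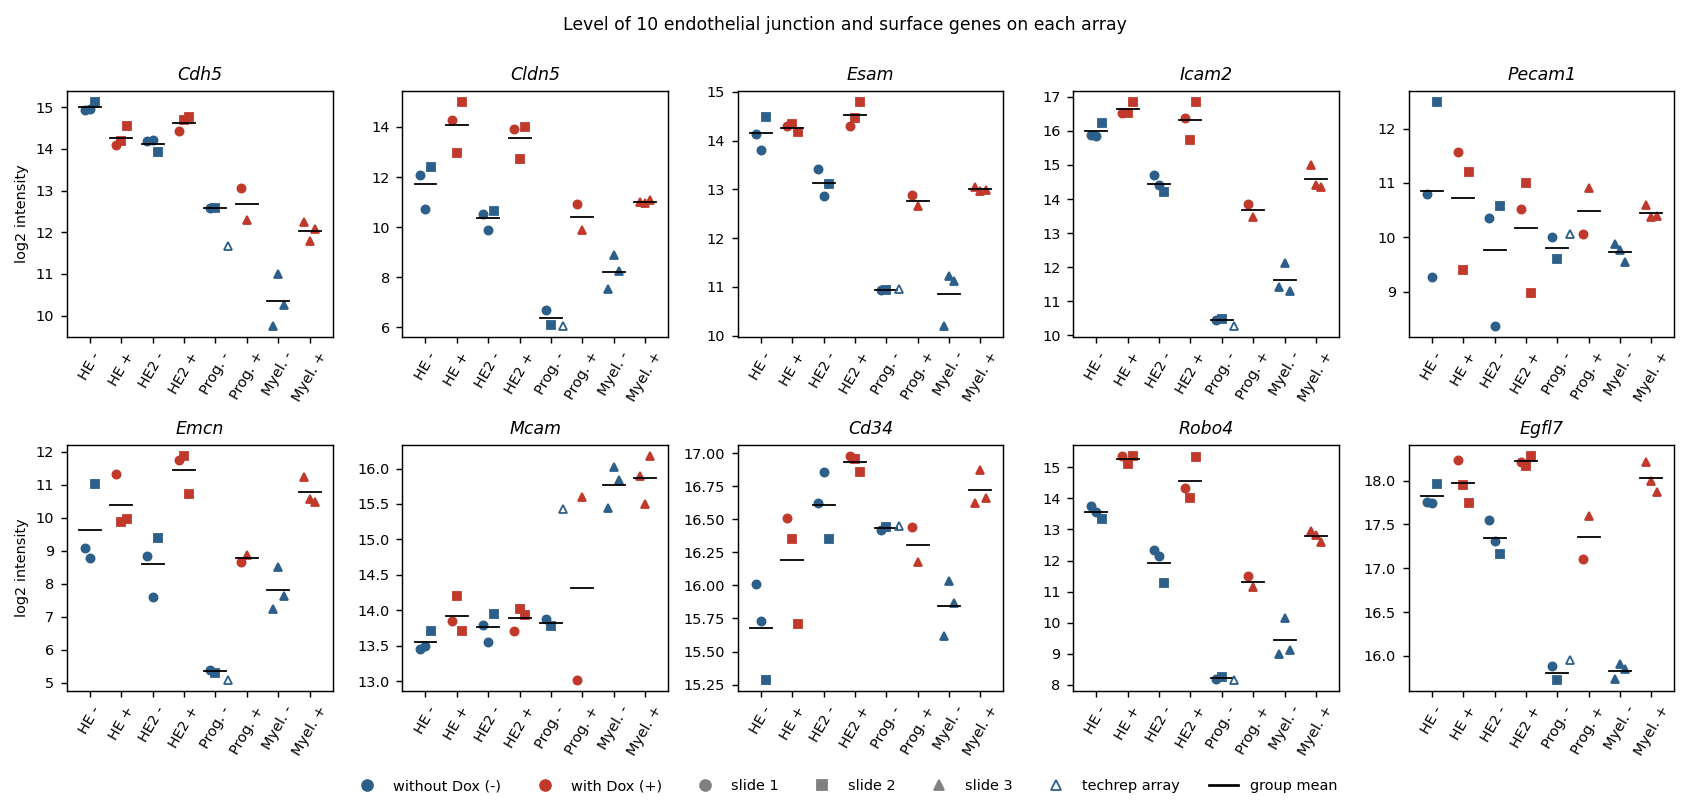
Log2 intensity (y axes) of the 10 genes on each of the 23 arrays by group (x axis, - without and + with Dox), with symbols for the slide, an open symbol for the techrep array and lines for group means. Cldn5, Icam2, Robo4 and Emcn fall from HE to uninduced progenitors and are higher in induced than uninduced progenitors.

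Between stages without Dox, Robo4, Icam2 and Esam fell from HE to HE2 and, with 4 others, from HE2 to progenitors. From HE to HE2, 3 of the 10 were called as downregulated (2.67% of all genes tested), and 6 were lower on all HE2 than on all HE arrays (13.3%). The called changes were -1.62 ± 0.34 (SE) for Robo4 (adjusted P = 0.0038), -1.55 ± 0.27 for Icam2 (adjusted P = 0.00103) and -1.02 ± 0.24 for Esam (adjusted P = 0.00875). Cd34 went the other way, with all HE2 arrays above all HE arrays and a change of 0.94 ± 0.21 that was under 2-fold. Cldn5 changed by -1.38 ± 0.52 with no overlap, and it was called, at an adjusted P of 0.00379, with the replicate number as a block, which paired these arrays. The call of Robo4 was lost without uninduced HE2 array 3 (-1.30), and that of Esam without uninduced HE array 1 or 3 or uninduced HE2 array 2 or 3, with changes from -0.85 to -1.02. Esam was also not called with scaling to the 75th percentile (-0.91) or with the deposited log2 values (-0.9996), and neither Esam nor Robo4 in the fit of these groups alone. From HE2 to progenitors, 7 were called as downregulated (3.62%) and the same number were lower on all arrays (20.3%). Icam2 changed by -3.98 ± 0.30, Cldn5 by -3.96 ± 0.58, Robo4 by -3.69 ± 0.37 and Emcn by -3.25 ± 0.62. Esam changed by -2.20 ± 0.26, Egfl7 by -1.53 ± 0.19 and Cdh5 by -1.53 ± 0.29. Over both steps the same number, 7, was called from HE to progenitors (8.72%), and Icam2, Cldn5 and Robo4 fell there by 46.0-, 40.6- and 39.8-fold. Without uninduced progenitor array 2 the call of Emcn from HE2 to progenitors was lost (-3.21).

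With Dox, the step from HE to HE2 gave no call among the 10 genes (3.1% of all genes tested were called in either direction), with adjusted P values from 0.0496 to 0.983 in limma and 2 of the 10, Cd34 and Robo4, at an unadjusted P under 0.05. Robo4 changed by -0.71 ± 0.34 (SE), Icam2 by -0.31 ± 0.27 and Esam by 0.25 ± 0.24, and the arrays of all 3 overlapped between induced HE and induced HE2. The difference between this step with and without Dox was itself called for none of the 10 genes. In limma it was 0.92 ± 0.47 for Robo4 (adjusted P = 0.649), 1.24 ± 0.38 for Icam2 (adjusted P = 0.178) and 1.27 ± 0.33 for Esam (adjusted P = 0.0903). From induced HE2 to induced progenitors 6 were called as downregulated (5.34%) and 8 were lower on all arrays (20.8%). Robo4 changed by -3.24 ± 0.37, Cldn5 by -3.13 ± 0.58, Emcn by -2.68 ± 0.62, Icam2 by -2.65 ± 0.30, Cdh5 by -1.94 ± 0.29 and Esam by -1.75 ± 0.26. Egfl7 changed by -0.86 ± 0.19, under 2-fold. From induced HE to induced progenitors 5 were called (8.97%), and Icam2 was 7.78-fold lower, beside 46.0-fold without Dox, a difference of 2.57 ± 0.43 on the log2 scale (adjusted P = 0.00186). The call of Cldn5 from HE2 was lost without induced progenitor array 2 (-2.61), as was that of Cdh5 from HE (-1.21), and that of Emcn from HE2 without either progenitor array or induced HE2 array 1 or 2 (-2.46 to -2.78). With slide as a block, the calls from HE to progenitors of Cdh5 (-1.13), Cldn5 (-3.12) and Esam (-1.28) were lost. With slide or scan day as a block, the calls from HE2 to progenitors of Cldn5 (-2.59 or -2.61) and Emcn (-2.59 or -2.78) were lost and Egfl7 was called (-1.19 or -1.11).

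**Figure D4:**
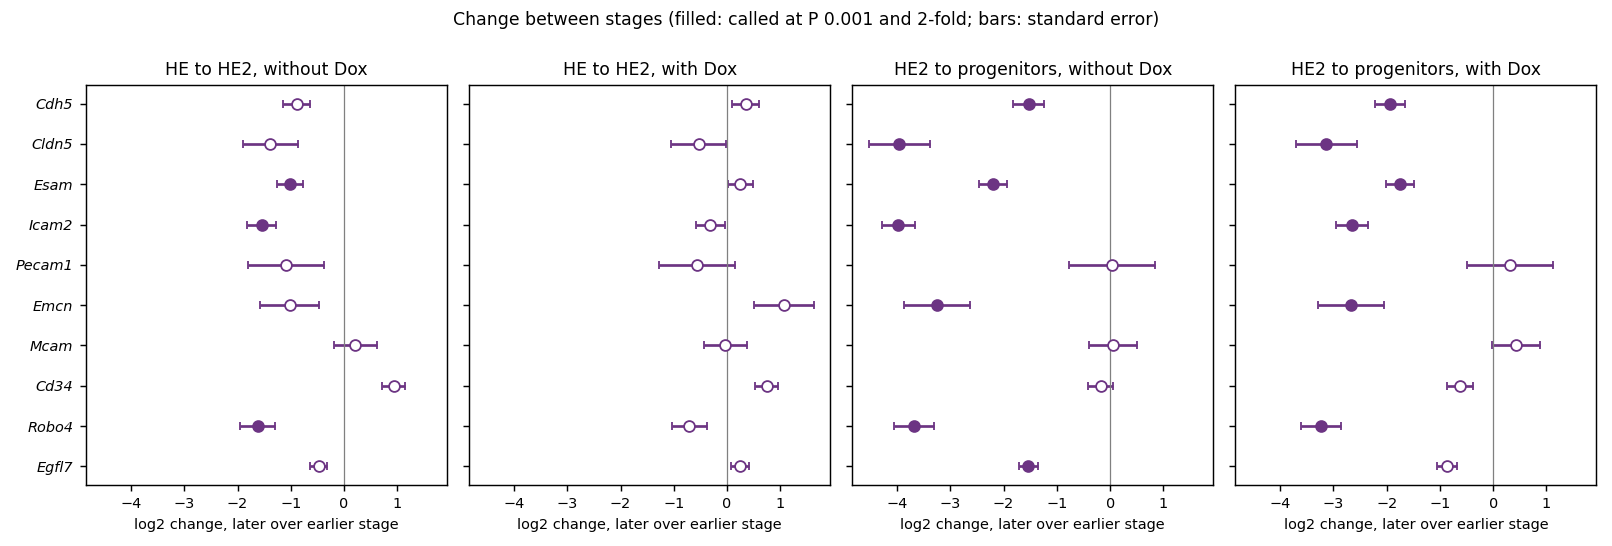
Log2 change between stages (x axis, later over earlier stage) of the 10 genes (y axis), from HE to HE2 and from HE2 to progenitors, without and with Dox, with bars for the standard error and filled points for called changes. Without Dox 3 and 7 genes are filled, and with Dox 0 and 6. The difference between a step with and without Dox was called for none of the 10 genes, at either step.

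From progenitors to myeloid progenitors without Dox, Cdh5 changed by -2.24 ± 0.29 (SE, adjusted P = 1.4e-05) and Mcam rose by 1.94 ± 0.45 (adjusted P = 0.00315), while 13.9% of all genes tested were called in either direction. The levels of both were split by slide, but slides 1 and 2 also held all HE and HE2 arrays, where Cdh5 was high. All 8 arrays of slide 3 read Cdh5 at 9.76 to 12.29 and all 15 others at 12.58 to 15.13. The techrep array of uninduced progenitors, on slide 3, was at 11.67. It lay above the uninduced myeloid progenitor arrays of that slide at 9.76, 11.01 and 10.26, and below both uninduced progenitor arrays of slides 1 and 2 at 12.58. With slide or scan day as a block, the change of Cdh5 was -1.41 or -1.47 and that of Mcam -0.56 or -0.64, none of them called, and the call of Mcam was also lost without any 1 of uninduced myeloid progenitor arrays 2 and 3 and progenitor arrays 1 and 2 (1.82 to 1.99), with the mean of its probes (1.06) and with the techrep array added (1.41). In the fit of these groups alone that of Cdh5 was lost. Mcam and 4 others of the 10 were higher on all uninduced myeloid progenitor than on all progenitor arrays (28.8% of all genes). Of these, Cldn5, Emcn, Icam2 and Robo4 changed by 1.82 ± 0.58, 2.44 ± 0.62, 1.16 ± 0.30 and 1.20 ± 0.37, without passing the P threshold. With Dox, 0 of the 10 were called in this step (7.37%) by limma, 6 had an unadjusted P under 0.05, and Robo4 at 1.46 ± 0.37 and Emcn at 1.99 ± 0.62 had adjusted P values of 0.0112 and 0.0338.

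Whether the response to Dox differed between stages was tested as an interaction. From HE to progenitors the response was larger by 2.57 ± 0.43 (SE) for Icam2 (adjusted P = 0.00186), 1.72 ± 0.37 for Esam (adjusted P = 0.012) and 1.39 ± 0.26 for Egfl7 (adjusted P = 0.00478), 3 of the 10 genes beside 1.49% of all genes tested. From HE to myeloid progenitors, 4 of the 10 had a larger response (2.96%), Cdh5 by 2.42 ± 0.36 (adjusted P = 0.000408), Icam2 by 2.33 ± 0.38 and Esam and Egfl7 both by 2.04, with SEs of 0.33 and 0.24. For Cldn5, called with Dox at all stages, the responses in progenitors and myeloid progenitors differed from that in HE by 1.68 ± 0.82 and 0.46 ± 0.73, and neither was called. Between HE and HE2 no difference was called by limma (1.34%), with 5 genes at an unadjusted P under 0.05, the highest being 2.10 ± 0.79 for Emcn and the lowest P that of Esam at 1.27 ± 0.33 (adjusted P = 0.0903). Between HE2 and progenitors none was called either (0.645%), with 2 genes at an unadjusted P under 0.05, and Icam2 differed by 1.33 ± 0.43. Between progenitors and myeloid progenitors the response of Cdh5 was larger by 1.59 ± 0.40, past the unadjusted threshold with an adjusted P of 0.0649 (0.835% of all genes were called as larger). This call was lost in most alternatives, among them slide as a block (1.15), and without any 1 of 7 of the 10 arrays of these groups, with 1.21 without induced progenitor array 2. The call of Esam between HE and progenitors was lost without uninduced progenitor array 1 or 2 or induced progenitor array 1, and that of Egfl7 with slide as a block (1.05) or scaling to the 75th percentile (1.08), with changes of Esam from 1.60 to 1.72.

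Markers of other cell types moved with some of these changes. As a background for their counts, 4.7, 5.17, 3.03 and 5.13% of all genes were called higher with Dox, from HE to myeloid progenitors. Called lower were 2.39, 2.05, 0.704 and 1.18%. The mean log2 level of 8 mesenchymal and smooth muscle genes lay at 10.4 to 11.7 on uninduced and 9.87 to 10.2 on induced HE arrays, and at 9.74 to 10.7 on uninduced and 8.26 to 8.74 on induced HE2 arrays. In HE, 3 of the 8 were called lower and 1, Col3a1, higher, and in HE2 4 of the 8 lower, Col1a1 at -3.25, Acta2 at -2.99, Pdgfrb at -2.57 and Tagln at -2.42. The epithelial keratin genes Krt8 and Krt18, the 2 of 5 epithelial genes that were tested, changed by -3.70 and -2.67 in HE2, both called, and by -1.57 and -2.13 in HE, where Krt18 was called. Their mean lay at 12.6 to 13.2 on uninduced and 10.4 to 11.5 on induced HE arrays, and at 11.9 to 12.9 and 8.79 to 9.78 in HE2, without overlap. In progenitors no mesenchymal gene was called, with list means of 8.63 to 8.82 without and 8.13 to 8.79 with Dox. In myeloid progenitors the mesenchymal mean lay at 6.90 to 7.73 without and 7.52 to 8.36 with Dox, which overlapped. The keratin mean there lay at 9.31 to 10.4 without and 9.90 to 10.6 with Dox, again overlapping. The mean of 8 haematopoietic genes lay, without Dox, between 8.79 and 9.52 on HE arrays, between 11.2 and 11.4 on HE2 arrays and between 12.4 and 12.5 on progenitor arrays. That of 6 differentiated myeloid genes was between 7.50 and 8.04, between 8.71 and 9.70 and between 10.5 and 10.7. With Dox, 1, 0, 0 and 1 of the 8 haematopoietic genes were called higher from HE to myeloid progenitors and 0, 2, 3 and 0 lower. The higher ones were Was in HE at 1.02 and Gfi1 in myeloid progenitors at 3.22, and Spi1 was among the lower ones at -2.73 in HE2 and -2.23 in progenitors. Of the 6 differentiated myeloid genes none was called higher and 0, 2, 1 and 0 lower, Mpo and Csf1r in HE2 at -1.48 and -1.77 and Prtn3 in progenitors at -2.32. With Dox the mean of the haematopoietic genes lay between 9.02 and 9.66 in HE, 10.5 and 10.7 in HE2, and 11.7 and 12.2 in progenitors. Of 6 cardiac genes, 1, 0, 1 and 1 were called higher and 1, 1, 0 and 0 lower, from HE to myeloid progenitors. In myeloid progenitors the cardiac mean lay at 6.43 to 6.60 without and 6.98 to 7.20 with Dox, without overlap. The cardiac gene called higher there was Tnnt2 at 2.19. Of the 6, 2 to 3 were well above background on each uninduced and 3 to 5 on each induced myeloid progenitor array. Of the 8 haematopoietic genes 6 to 8 were well above background on each HE array. The part of these cells in the changes of the 10 genes was not tested.

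Other genes of the same structures were read from lists of partners. As a background for their counts, the shares of all genes called with Dox, from HE to myeloid progenitors, were 4.7, 5.17, 3.03 and 5.13% higher and 2.39, 2.05, 0.704 and 1.18% lower. Of 18 adherens junction partners, 1, 2, 2 and 3 were called higher and 1, 2, 0 and 1 lower with Dox in HE, HE2, progenitors and myeloid progenitors, with medians of -0.02, 0.47, 0.26 and 0.47. Ptprb, the phosphatase VE-PTP that binds VE-cadherin, was among the called at every stage. It stood at 8.49 and 8.35 on uninduced and 14.52 and 14.73 on induced progenitor arrays, a rise of 6.21 ± 0.34 (SE, adjusted P = 1.01e-08). It rose by 1.36 in HE, 2.59 in HE2 and 5.15 in myeloid progenitors. Rasip1, a Rap1 effector at endothelial junctions, rose by 3.05 ± 0.22 and Cdh2 (N-cadherin) by 2.05 ± 0.33 in myeloid progenitors, and Radil changed by -1.30 in HE2 and Afdn (afadin) by -1.27 in HE. Of 17 tight junction genes tested of 18, 2, 1, 1 and 0 were called higher and 1, 0, 0 and 1 lower. These were Cldn15 at 2.48 ± 0.25, Cldn3 at 1.37 and Ocln (occludin) at -1.26 in HE, F11r (JAM-A) at 1.05 in HE2, Tjp1 (ZO-1) at 2.19 ± 0.41 in progenitors and Cgn (cingulin) at -2.24 ± 0.36 in myeloid progenitors. Among 6 connexin genes the called one at any stage was Gja4, the connexin of arterial endothelium, at -2.02 ± 0.25 in HE and 1.38 in both kinds of progenitors.

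Beside the same shares of 4.7, 5.17, 3.03 and 5.13% of all genes called higher, of 22 genes of endothelial surface receptors and glycoproteins, 0, 7, 5 and 13 were called higher and 0 lower in HE, HE2, progenitors and myeloid progenitors, with medians of 0.22, 0.96, 1.21 and 1.84. Stab1, a scavenger receptor, rose by 4.26 ± 0.39 (SE) and Pcdh12, a protocadherin of endothelial junctions, by 3.57 ± 0.44 in progenitors. In myeloid progenitors Thbd (thrombomodulin) rose by 3.43 ± 0.35, Tek by 3.07 ± 0.72 and Eng (endoglin) by 2.94 ± 0.53. Of 15 endothelial transcription factor genes, 3, 6, 5 and 9 were called higher and 1, 0, 0 and 0 lower, the 1 being Etv2 in HE at -1.38, named after its value was seen. Sox7 rose by 3.57 ± 0.39 in progenitors, Sox17 by 2.75 ± 0.30 and Ets1 by 2.68 ± 0.28 in myeloid progenitors, and Klf4 by 2.57 ± 0.21 and Klf2 by 2.14 ± 0.40 in HE2. Of 15 genes of guidance and of partners of the 10 genes, 1, 3, 1 and 1 were called higher and 1, 3, 1 and 0 lower. Unc5b, a netrin receptor that binds Robo4, changed by -3.21 ± 0.37 in HE, where Robo4 rose. Selplg changed by -1.45 in progenitors and Robo2 by -1.18 in HE2. Ezr (ezrin) rose by 1.93 in HE and Notch4 by 1.69 in myeloid progenitors.

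Over the 22 arrays of the comparisons, which share groups and slides, the levels of Robo4, Icam2, Cldn5 and Esam ran closely together, with Pearson correlations between 0.92 and 0.98 and the highest, 0.984, between Robo4 and Icam2. Cdh5 correlated with them at 0.68 to 0.86, and the median correlation with the other 9 genes was 0.32 for Pecam1, 0.16 for Cd34 and -0.31 for Mcam. The value for Mcam is that of its brighter probe, whose levels were split by slide. Outside the 10 genes, those whose levels were most like the mean of the 10 were Mmrn2 at 0.984, Gimap4 at 0.975, Nid1 and Limch1 at 0.974 and Gap43 at 0.972. The mean of Mmrn2, an endothelial matrix protein, without Dox was 14.5 for HE, 13.1 for HE2, 9.55 for progenitors and 10.4 for myeloid progenitors. With Dox these means were 15.5, 15.7, 13.1 and 13.4. Of the 19 protein-coding genes next to one of the 10 in the annotation that were measured, 2 were called in limma with Dox, 1 of them lower in HE (2.39% of all genes) and 1 higher in myeloid progenitors (5.13%), near the background. Vsig2, next to Esam, rose by 2.55 ± 0.31 (SE, adjusted P = 1.28e-05) in myeloid progenitors, and Bean1, next to Cdh5, changed by -1.31 ± 0.23 (adjusted P = 0.000621) in HE. Robo3 and Hepacam, on either side of Robo4, and Septin5 and Cdc45, on either side of Cldn5, were called at no stage.

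**Figure D5:**
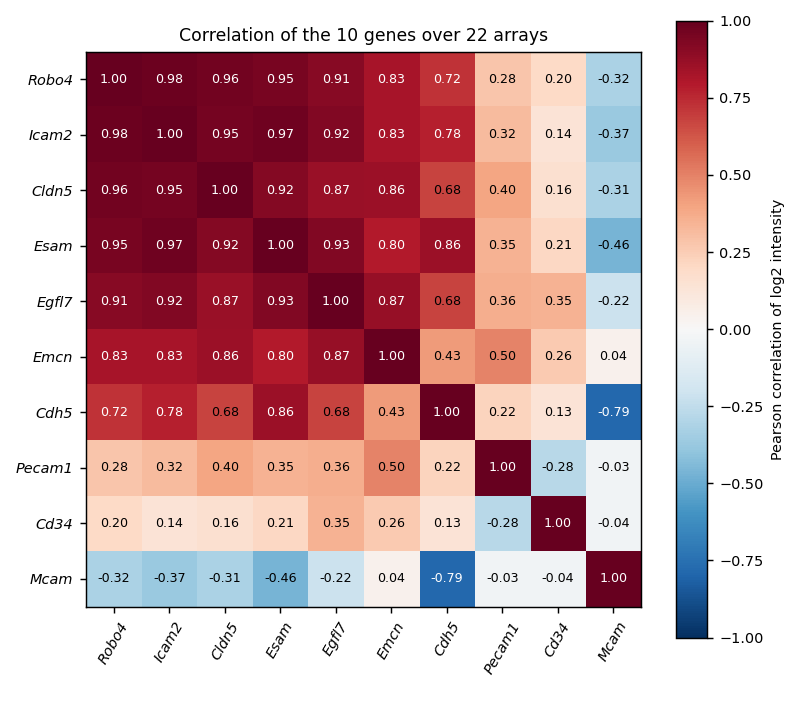
Pearson correlation of log2 intensity between each pair of the 10 genes over 22 arrays, from blue at -1 to red at 1. Robo4, Icam2, Cldn5 and Esam form the block of highest values, and Mcam runs against most others, at -0.79 with Cdh5. Mcam is read by its brighter probe, and its levels and those of Cdh5 are split by slide in opposite directions.

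By level, Icam2, Cldn5 and Robo4 were highest in induced HE, Esam, Egfl7, Emcn and Cd34 in induced HE2 and Cdh5 in uninduced HE. Of these highest groups, only that of Cdh5 did not overlap with the next group. Cldn5, Robo4, Icam2 and Emcn were lowest in uninduced progenitors, without overlap with uninduced myeloid progenitors as the next group, and Cdh5 in uninduced myeloid progenitors, again without overlap with the next group. Esam was lowest in uninduced myeloid progenitors and Cd34 in uninduced HE, both overlapping with the next group. For Robo4 the order ran from induced HE (15.27 ± 0.16 SD) and induced HE2 (14.56 ± 0.70), which overlapped, through uninduced HE (13.55 ± 0.21), induced myeloid progenitors (12.78 ± 0.19), uninduced HE2 (11.92 ± 0.57) and induced progenitors (11.32 ± 0.24), the last pair overlapping, to uninduced myeloid progenitors (9.43 ± 0.64) and uninduced progenitors (8.23 ± 0.06). Each group had 3 arrays, or 2 for progenitors. For Cdh5 the order was uninduced HE (15.00 ± 0.11), then induced HE2, induced HE and uninduced HE2 between 14.62 and 14.11 with overlap between neighbours except at uninduced HE, then both progenitor groups at 12.68 and 12.58, induced myeloid progenitors at 12.03 ± 0.23 and uninduced ones at 10.34 ± 0.63.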

How the data were processed

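RNA from sorted or cultured cells was hybridised to 23 one-colour Agilent mouse arrays on 3 slides. The authors deposited scanner output per array, whose spot intensity and local background were made with Agilent Feature Extraction (10.7.3.1 per the file headers, 10.7.1.1 per the labels), and a table of log2 values that the authors had background-corrected and quantile-normalized. The median spot intensity and median background were used here. They were corrected with normexp and an offset of 16, control spots (3671) and spots marked as outliers were dropped, 23 arrays were quantile-normalized, and spots of a probe were averaged. Probes were named through their RefSeq accession, which named 26582 of 55681 probes and gave 20145 genes, each read by its probe with the highest mean. Of these, 15202 reached a log2 intensity of 6.5 on at least 1 array and were tested. Limma 3.58.1 in R 4.3.3 fitted 22 arrays in 8 groups (14 residual degrees of freedom) with contrasts for 17 comparisons, called at P of at most 0.001 and at least 2-fold, with Benjamini-Hochberg adjustment over all genes tested. The number of arrays limits the precision.

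The 10 genes and the lists were chosen with earlier results of these data known. From each list, up to 5 genes could be named over all Dox comparisons together. These were called, did not overlap between arrays and had the largest changes, and a few others were named after their values were seen. The fit was tested on simulated data. Alternatives changed the background correction, the scaling, the filter, the probe rule, the threshold, the block and the arrays used. Same-numbered arrays of uninduced HE and HE2 deviated together (r of 0.39 to 0.80), so their numbers were taken as pairs, on the evidence of the data alone. Other pairs of groups did not pass this check with the scanner files' numbers. With the value table's numbers, which differ in 3 induced groups, uninduced and induced HE2 (r of 0.36 to 0.61), uninduced HE and induced HE2 (0.28 to 0.62) and the 2 myeloid progenitor groups (0.13 to 0.26) passed it too, and which numbering is right is not known.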

Additional observations from a re-analysis of the deposited data

Results flagged for a closer look

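The response to Dox differed between stages by a test of the difference itself for 4 of the 10 genes, 8 times in all. Between HE and progenitors it was larger in progenitors for Icam2 (2.57), Esam (1.72) and Egfl7 (1.39), where 1.49% of all genes were called as larger. Between HE and myeloid progenitors it was larger in myeloid progenitors for Cdh5 (2.42), Icam2 (2.33), Esam (2.04) and Egfl7 (2.04), beside 2.96% of all genes. Between progenitors and myeloid progenitors it was larger in myeloid progenitors for Cdh5 (1.59), beside 0.835% of all genes. This last call had an adjusted P of 0.0649 in limma and was lost in 15 of 25 alternative settings. These are differences between log2 changes, and the comparisons with HE share its arrays.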

How the results depend on the processing

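Of 58 called changes of the 10 genes, 48 to 58 were kept under each alternative fitted to all arrays, with 48 kept with slide as a block, 51 with scan day as a block and 53 with scaling to the 75th percentile. Slide as a block turned the change of Mcam from progenitors to myeloid progenitors without Dox to -0.56, and scan day as a block to -0.64. The numbers of the 10 genes called moved as follows, among other changes, and causes were not tested. With Dox in progenitors, Egfl7 was lost with scaling to the 75th percentile or the groups fitted alone. Emcn was lost there with slide or scan day as a block. For myeloid progenitors minus HE, Robo4 was called with 2-fold alone or an adjusted P of at most 0.05. With 2-fold alone, Emcn was called there and from HE to progenitors with Dox, and Pecam1 from HE to progenitors without Dox. With 2-fold alone as the threshold, 1 was called from HE to HE2 with Dox (0 as reported) and 6 without Dox (3), 6 from progenitors to myeloid progenitors without Dox (2) and 3 with Dox (0), and for differences in Dox response 4 for HE2 minus HE (0), 1 for progenitors minus HE2 (0), 6 for progenitors minus HE (3) and 3 for myeloid progenitors minus progenitors (1). With an adjusted P of at most 0.05 these were 6 and 3 from progenitors to myeloid progenitors without and with Dox, and 0 for myeloid progenitors minus progenitors. That last count was also 0 with scaling to the 75th percentile, slide, scan day or the replicate number as a block (by either numbering), the techrep array added, or the groups fitted alone. Fitted alone, 1 gene was called with Dox in HE (2), 1 from HE to HE2 without Dox, 1 for HE2 minus HE and 2 from progenitors to myeloid progenitors with Dox. Slide as a block left 2 from HE to progenitors with Dox (5), and slide or scan day as a block left 0 from progenitors to myeloid progenitors without Dox, where scaling to the 75th percentile or the value table's numbers as a block left 1. An offset of 50 and the deposited log2 values each gave 1 for HE2 minus HE. From progenitors to myeloid progenitors with Dox, an offset of 50, no background correction, no filter, the mean of a gene's probes and the techrep array added each gave 1.

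Leaving out 1 array at a time gave 1 to 2 genes called with Dox in HE, 5 in HE2, 5 to 7 in progenitors and 7 in myeloid progenitors. It gave 2 to 3 from HE to HE2 without Dox, 4 to 6 from HE to progenitors with Dox and 7 without, 5 to 6 from HE2 to progenitors with Dox and 6 to 7 without, and 1 to 3 and 0 to 1 from progenitors to myeloid progenitors without and with Dox. For differences in Dox response it gave 0 to 1 for HE2 minus HE and for progenitors minus HE2, 2 to 3 for progenitors minus HE, 4 to 5 for myeloid progenitors minus HE and 0 to 2 for myeloid progenitors minus progenitors. Where an arm was left with 1 array, it was assumed to vary like the other groups. With the replicate block, Cldn5 was called from HE to HE2 without Dox (-1.38), the calls of Emcn from HE2 to progenitors with Dox (-2.55) and of Cdh5 for myeloid progenitors minus progenitors (1.59) were lost, and no other call changed. Scaling to the 75th percentile moved the median change of all genes with Dox to -0.19 in progenitors and -0.15 in myeloid progenitors. The block with the value table's numbers was added after the data were seen. Signal over background limits Emcn in uninduced progenitors.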

Other observations

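In the deposited table of log2 values, 6 columns in 3 groups, those of replicates 2 and 3 of induced HE, induced HE2 and induced myeloid progenitors, followed the scanner output of the other replicate, with a Spearman correlation of 1 with it and of 0.943 to 0.953 with their own. Group means are the same under both numberings. Arrays are numbered here as in the scanner output.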
